A study of Homo sapiens with 18 samples.

Results

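The genes described here are 8 regulators of the antioxidant response, chosen by name from the 38716 gene symbols of the series. They are NFE2L1 and NFE2L2, which encode the transcription factors NRF1 and NRF2, KEAP1 and CUL3, which encode the substrate adaptor and the scaffold of the ubiquitin ligase that keeps NRF2 low, BACH1, a repressor that competes for the same DNA sites, and MAFF, MAFG and MAFK, the small MAF proteins with which NRF1, NRF2 and BACH1 pair. They were read in all 18 libraries of IMR90 cells, fibroblasts from human fetal lung. Ribosome profiling (Ribo-seq), in which mRNA pieces shielded by ribosomes are sequenced, was done beside mRNA-seq on 3 replicates of 3 conditions. Young cells were proliferating at low passage, old cells had reached replicative senescence at high passage, and the ICM group was low-passage cells given inflachromene, an inhibitor that binds HMGB1 and HMGB2. The labels name no genetic change in any group and give neither dose nor duration of inflachromene for these libraries, the study describes treatment over several days, and all cells came from a single line. Per the study's methods, both libraries of a replicate came from one lysate.

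NRF2 is made continuously, and in unstressed cells KEAP1 presents it to the CUL3 ligase for ubiquitination and destruction by the proteasome. Electrophiles and oxidants modify cysteines of KEAP1, new NRF2 then escapes, enters the nucleus, pairs with a small MAF protein and binds antioxidant response elements in genes for glutathione and thioredoxin metabolism, NADPH supply, quinone reduction and heme breakdown. BACH1 occupies many of the same elements until heme binds it. NRF1 resides in the membrane of the endoplasmic reticulum, is processed by NGLY1 and DDI2, and raises proteasome genes when the proteasome is impaired. Small MAF proteins hold a DNA-binding leucine zipper and no activation domain, so that pairs of small MAFs alone repress. Much of this control acts on protein stability, which neither assay measures.

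Depth limited the Ribo-seq values more than those of mRNA-seq. Ribo-seq libraries held 46239 to 1718521 reads in coding sequences (CDS) and mRNA-seq libraries 7902427 to 14144455 reads in coding genes. Among the Ribo-seq libraries, young replicate 1 and old replicate 2 stood apart, with 34.4% and 15% of their reads in the CDS and 52.5% and 45.2% in non-coding RNA. They also held more footprints of 15 genes that were high only in ICM mRNA-seq (a log2 change over 4 against both other conditions), whose summed Ribo-seq level was 1050 and 1167 CPM (reads scaled to the library size) in these libraries, 134 to 187 in the other young and old libraries, and 5891 to 9815 in ICM. Ribo-seq calls are therefore given with and without both libraries. Old replicate 3, which was kept, had 54.7% of its reads in the CDS and 23.9% in non-coding RNA. The remaining libraries had 77.8% to 88.8% and 4.75% to 11.8%. Each of the 10 fibroblast markers reached 1 CPM in at least 1 library of each assay, with summed mRNA-seq levels of 32656 to 36819 CPM in young, 28852 to 33560 in old and 14317 to 14588 in ICM. Of the 8 epithelial, 6 endothelial and 6 leukocyte markers, 4, 4 and 5 were under 1 CPM in every mRNA-seq library, the defining genes CDH1, PECAM1 and PTPRC among them. Summed epithelial marker levels were 316 to 340 CPM in young, 232 to 253 in old and 45.9 to 52.7 in ICM mRNA-seq. Endothelial sums were 56.5 to 64.8, 89.5 to 102 and 54.1 to 61.6 CPM, and leukocyte sums 20.5 to 22.5, 31.6 to 34.4 and 57.2 to 68.1 CPM, in the same order. The part of these marker levels in the results below was not tested. In such bulk samples, a change in the share of cells that express a gene and a change in its RNA per cell cannot be told apart.

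The genes lie on 6 chromosomes (GENCODE annotation on GRCh37). NFE2L1 is at chr17:46125691-46138907 on the + strand and NFE2L2 at chr2:178083395-178257484 on the − strand. KEAP1 is at chr19:10596801-10614234 on the − strand and CUL3 at chr2:225334867-225450114 on the − strand. BACH1 is at chr21:30566392-31003071 on the + strand. MAFF is at chr22:38596774-38612514 on the + strand, MAFG at chr17:79876146-79885611 on the − strand and MAFK at chr7:1570338-1582679 on the + strand.

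The start regions of MAFF and MAFG are shown as examples of windows with motif matches, and were picked for these matches after they were found. Each line gives the 250 bases before the start of the MANE Select transcript, 5′ to 3′ on the gene's strand. Capitals mark matches, on either strand, to the core of the antioxidant response element (TGACNNNGC), the TRE (TGANTCA), the CRE (TGACGTCA) or the E-box CACGTG. A TRE followed by GC can also be part of an antioxidant response element.
MAFF, chr22:38597751-38598000, + strand: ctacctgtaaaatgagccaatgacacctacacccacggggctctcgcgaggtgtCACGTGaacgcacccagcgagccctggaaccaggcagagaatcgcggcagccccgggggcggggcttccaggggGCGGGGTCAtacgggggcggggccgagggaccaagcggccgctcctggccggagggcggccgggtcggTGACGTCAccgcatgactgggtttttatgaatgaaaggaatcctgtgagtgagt
MAFG, chr17:79885612-79885861, − strand: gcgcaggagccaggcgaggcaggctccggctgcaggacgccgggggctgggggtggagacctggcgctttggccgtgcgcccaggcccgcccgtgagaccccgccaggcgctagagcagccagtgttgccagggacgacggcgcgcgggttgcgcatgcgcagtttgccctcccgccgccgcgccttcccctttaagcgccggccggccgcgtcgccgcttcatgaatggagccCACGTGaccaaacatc
MAFF held an antioxidant response core 122 to 114 bases before its start on the opposite strand, an E-box and a CRE, and MAFG held an E-box 16 to 11 bases before its start. The window of BACH1 held a TRE 48 to 42 bases before its start. An antioxidant response core was found in 11.4% of 18921 such windows over all genes with a MANE Select transcript. The shares for the TRE, the CRE and the E-box were 4.71%, 2.44% and 7.9%. Such matches describe these letters in these windows, no binding was measured, and nothing about which genes changed can be read from them.

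The coding sequences of the small MAFs share identical stretches. By the read lengths in the study's methods, mRNA-seq reads were longer than each run below, while footprints could lie within the longer runs. The longest identical runs within aligned positions were 37 bases between MAFG and MAFK (coding bases 92 to 128), 29 bases between MAFF and MAFK (401 to 429) and 21 bases between MAFF and MAFG (304 to 324).
MAFG and MAFK: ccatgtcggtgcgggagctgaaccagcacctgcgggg
MAFF and MAFK: ccagcgtcatcaccatcgtcaagtccacc
MAFF and MAFG: ctggagctcgacgcgctgcgc
In mRNA-seq, the CDS counts of MAFG and of MAFK were not whole numbers in 7 of 9 libraries each, so that some reads had been divided between features. The 5′ UTR and CDS counts of NFE2L1, NFE2L2, KEAP1 and CUL3 were whole in all 9. The 3′ UTR counts of MAFF were not whole in 8 of 9. In Ribo-seq, the CDS counts of MAFF, MAFG and MAFK were not whole in 3, 3 and 4 of 9. The level of a single small MAF is uncertain to that extent, over the 3 regions as well as in the CDS. Their sum is given too, and whether divided reads were shared within the family or with other features was not tested.

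In mRNA-seq, the reads of the regulators lay on different parts of their transcripts. Summed over 3 young libraries, 3.37% of MAFG reads were in the 5′ UTR and 1149 of 1305 were in the 3′ UTR. MAFK had 1237 of 1591 reads in the 3′ UTR and BACH1 1102 of 2501. NFE2L2, by contrast, had 91 of 5975 young reads in the 3′ UTR. The annotated 3′ UTR was 4338 bases long for MAFG, 2671 for MAFK, 3318 for BACH1 and 480 for NFE2L2. The part of this length in the shares was not tested. NFE2L1, which had a 616-base 5′ UTR, had 13.8% of its young mRNA-seq reads there, and this share was 12.8% in old cells. Across all genes, 3.24% of young, 9.27% of old and 3.34% of ICM footprints lay in 5′ UTRs, and 1.85%, 4.45% and 2.07% in 3′ UTRs. These shares pool libraries that were unlike. In old replicates 1, 2 and 3, 1672807 of 1826173, 54708 of 134850 and 583798 of 717722 coding-gene reads lay in the CDS. In young replicate 1 it was 54421 of 70234. The part of such library differences in the pooled shares was not tested.

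**Figure D1:**
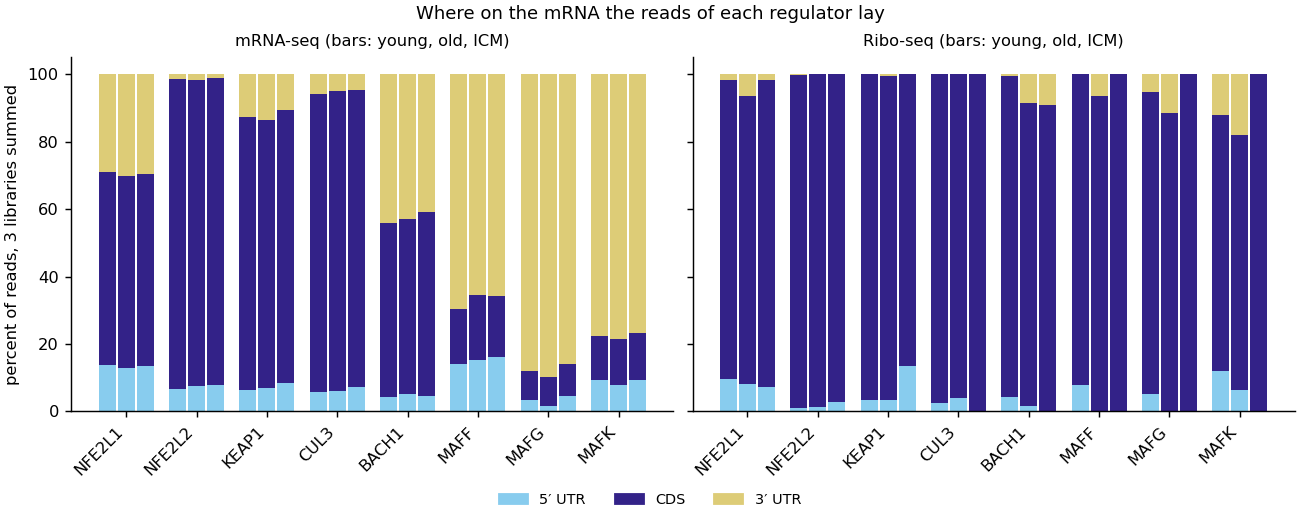
Percent of reads in the 5′ UTR, CDS and 3′ UTR of each regulator, with 3 libraries summed per bar, in the order young, old and ICM. In mRNA-seq the small MAFs have most of their reads in the 3′ UTR, while footprints lie mainly in the CDS. The Ribo-seq bars of MAFF, MAFG, MAFK and BACH1 in ICM rest on 8 to 14 CDS reads.

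Levels between genes were compared as CDS reads in CPM divided by the coding length in kilobases. In young mRNA-seq, the order was NFE2L2 (101 ± 1.14, SD, n = 3), NFE2L1 (81.2 ± 2.32), CUL3 (36.5 ± 0.753), KEAP1 (31.6 ± 0.978), BACH1 (19.6 ± 0.814), MAFF (16.2 ± 1.86), MAFK (14.5 ± 1.84) and MAFG (7.39 ± 2.53). The replicates of MAFF and MAFK overlapped and those of all other neighbours in this order did not. In old cells NFE2L1 was first (99.4 ± 6.25), ahead of NFE2L2 (62.4 ± 5.92), and MAFK came next (45.8 ± 7.81). In ICM cells NFE2L2 (99.8 ± 4.38) and NFE2L1 (77.6 ± 4.94) led, KEAP1 followed (64.7 ± 2.52) and BACH1 was last (12.7 ± 0.714). In young Ribo-seq NFE2L2 was again first on this scale (131 ± 76), but its replicates overlapped those of NFE2L1 (64.3 ± 4.43). In old and in ICM Ribo-seq, the replicates of each pair of neighbours overlapped, although genes farther apart in the order could be separate. BACH1, the last in both, was at 26.1, 18.2 and 20 in old cells against 78.8, 77.6 and 88.2 for NFE2L2, and at 17.9, 6.18 and 10.3 in ICM cells against 141, 60.1 and 101.

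The comparison between ICM and young cells sets low-passage cells given the inhibitor against proliferating low-passage cells. The sample titles do not say whether the young cells received vehicle. NRF2's own mRNA did not pass the test, while KEAP1 and MAFG about doubled, MAFK rose more, and BACH1 fell. In mRNA-seq, 6 of the 8 regulators were called changed at an adjusted p under 0.05 (edgeR's quasi-likelihood test with Benjamini-Hochberg adjustment over 13173 genes), 5 higher and 1 lower. Of all genes tested, 34.9% were called higher and 36.1% lower, so that a call by itself was common. How many of all genes had groups without overlap was not counted. Statements on overlap, here and below, therefore only describe the libraries of the named genes. The median log2 change was 0.36 over the 8 regulators and -0.01 over all genes.

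NFE2L2 mRNA was at 196, 201 and 200 CPM in young cells and at 195, 207 and 195 in ICM cells. The ranges overlapped, and the log2 change was 0.0016 (95% interval -0.13 to 0.14). NFE2L1 was at 328, 328 and 327 CPM in young and 312, 340 and 297 in ICM cells, which overlapped too. Its log2 change was -0.05 (95% interval -0.18 to 0.08).

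KEAP1, the sensor that hands NRF2 to the ligase, rose 2.04-fold. It was at 73.5, 71.5 and 74.9 CPM in young cells and at 144, 154 and 150 in ICM cells, with no overlap (log2 change 1.03, SE 0.06, adjusted p = 1.46e-12 by edgeR). CUL3, the scaffold of that ligase, was at 92.2, 95 and 97.5 CPM in young and at 109, 104 and 120 in ICM cells. The groups did not overlap, and the log2 change was 0.22 (SE 0.07, adjusted p = 0.00611 by edgeR). Without ICM replicate 3 the CUL3 change was 0.17 and no longer passed the test, with an adjusted p of 0.057 (edgeR). The ratio of NFE2L2 to KEAP1 reads, which moves with both genes, was 2.71 ± 0.0795 in young and 1.33 ± 0.0276 in ICM cells (SD, n = 3).

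BACH1, the repressor, was the only one of the 8 that fell. Its mRNA was at 80, 78.5 and 91.1 CPM in young cells and at 53, 52 and 47.7 in ICM cells. All ICM libraries lay below all young libraries (log2 change -0.71, SE 0.07, adjusted p = 8.92e-09 by edgeR). The ratio of NFE2L2 to BACH1 reads was 2.4 ± 0.187 in young and 3.92 ± 0.213 in ICM cells (SD, n = 3).

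All 3 small MAF genes, the shared partners, rose. MAFK went from 49.6, 51.1 and 57.6 CPM in young to 137, 134 and 146 in ICM cells, a 2.63-fold rise (log2 change 1.39, SE 0.09, adjusted p = 7.73e-12 by edgeR). MAFG went from 43.9, 44.9 and 41.6 to 90.9, 97.7 and 93.6 CPM, a 2.16-fold rise (log2 change 1.11, SE 0.07, adjusted p = 7.72e-12 by edgeR). MAFF went from 48.8, 48.1 and 50.3 to 66.7, 66.8 and 76.8 CPM, a 1.43-fold rise (log2 change 0.51, SE 0.08, adjusted p = 6.67e-06 by edgeR). In none of the 3 did the young and ICM libraries overlap. Their summed level was 145 ± 3.71 CPM in young and 303 ± 12 in ICM cells (SD, n = 3).

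**Figure D2:**
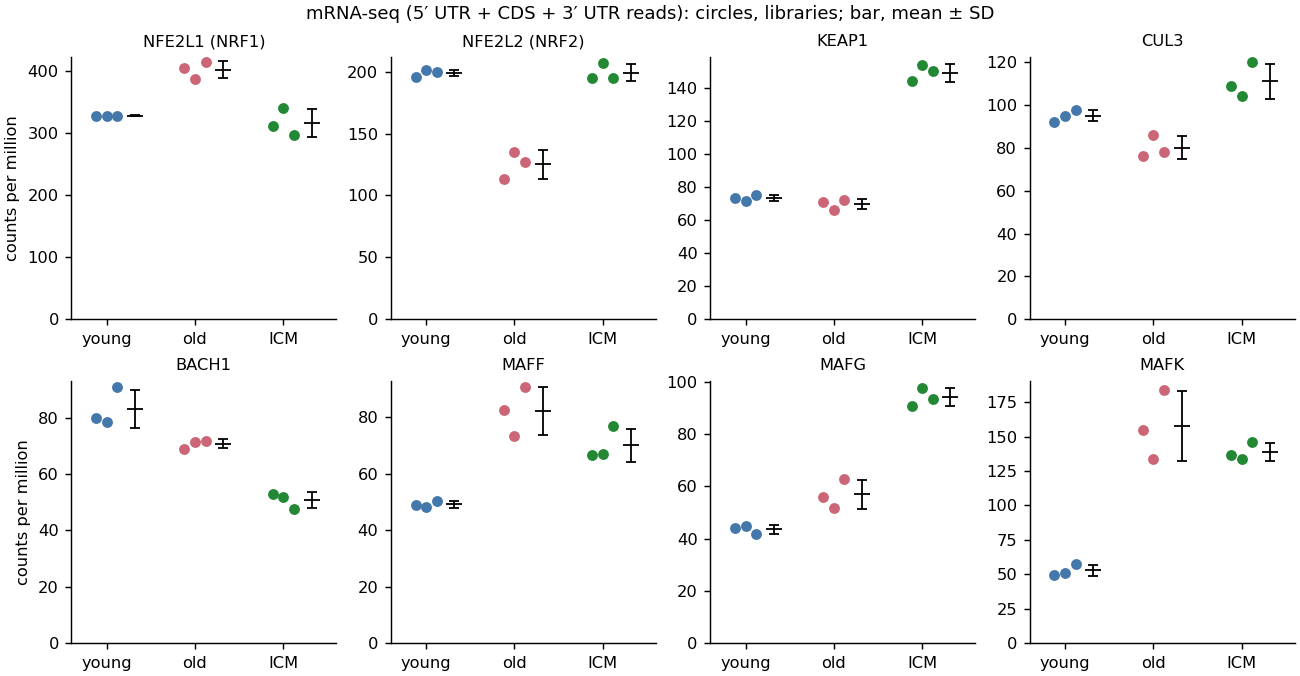
mRNA-seq level of each regulator in CPM, with 1 circle per library and the mean ± SD of 3 libraries beside it, for young, old and ICM cells. KEAP1 and MAFG are highest in ICM cells, NFE2L2 is lowest in old cells, BACH1 is lowest in ICM cells, and MAFF and MAFK are higher in both old and ICM cells than in young cells.

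The comparison of old with young cells addresses replicative senescence. Here NRF2 mRNA fell, NRF1 mRNA rose slightly, KEAP1 did not pass the test and the small MAF genes rose. It shares the young libraries with the comparison above, so both sets of values are given side by side without a measure of their likeness. In mRNA-seq, 7 of the 8 regulators were called, 4 higher and 3 lower, against 32.4% of all genes called higher and 33.7% lower. The median log2 change was 0.11 over the regulators and -0.01 over all genes.

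NFE2L2 was at 113, 135 and 127 CPM in old cells, below all young libraries, a 1.59-fold fall (log2 change -0.67, SE 0.07, adjusted p = 1.16e-08 by edgeR). NFE2L1 was at 404, 387 and 415 CPM, above all young libraries, a 1.23-fold rise (log2 change 0.29, SE 0.06, adjusted p = 0.000277 by edgeR). KEAP1 was at 71, 66.3 and 72.3 CPM, which overlapped the young range (log2 change -0.07, 95% interval -0.21 to 0.06). NRF1 and NRF2 mRNA thus moved in opposite directions in old cells.

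CUL3 was at 76, 86 and 78.1 CPM in old cells, below the young libraries (log2 change -0.24, SE 0.07, adjusted p = 0.00402 by edgeR). BACH1 was at 69, 71.5 and 71.8 CPM, also below them (log2 change -0.23, SE 0.07, adjusted p = 0.0058 by edgeR). Without young replicate 3, the highest young library, the BACH1 change was -0.16 and did not pass the test, with an adjusted p of 0.0552 (edgeR). The ratio of NFE2L2 to KEAP1 reads was 1.8 ± 0.231 and that of NFE2L2 to BACH1 reads 1.76 ± 0.131 in old cells (SD, n = 3).

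Among the small MAFs, MAFK was at 155, 134 and 184 CPM in old cells, a 2.98-fold rise over young cells (log2 change 1.58, SE 0.09, adjusted p = 1.8e-12 by edgeR). MAFF was at 82.5, 73.5 and 90.7 CPM (log2 change 0.74, SE 0.08, adjusted p = 3.96e-08 by edgeR). MAFG was at 56.1, 51.9 and 63 CPM (log2 change 0.39, SE 0.08, adjusted p = 0.000137 by edgeR). All old libraries lay above all young libraries in each of these genes. Counting CDS reads alone gave MAFG a like change of 0.41 that did not pass the test, with an adjusted p of 0.261 (edgeR). The summed small MAF level was 297 ± 39.6 CPM (SD, n = 3).

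Set directly against old cells, ICM cells had more NFE2L2, KEAP1, CUL3 and MAFG mRNA and less NFE2L1, BACH1 and MAFF mRNA. These 7 were called, 4 higher and 3 lower, where 30.7% of all genes were called higher and 32.6% lower. The median log2 change was 0.14 over the regulators and -0.01 over all genes. The largest of these differences was that of KEAP1 (log2 change 1.10, SE 0.06, adjusted p = 6.12e-13 by edgeR). MAFG followed with 0.72 (SE 0.07, adjusted p = 8.96e-09 by edgeR) and NFE2L2 with 0.67 (SE 0.07, adjusted p = 1.05e-08 by edgeR). In these 3 genes, old and ICM libraries did not overlap.

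CUL3 differed by 0.47 (SE 0.07), BACH1 by -0.48 (SE 0.07) and NFE2L1 by -0.35 (SE 0.06), without overlap between the groups. MAFF differed by -0.23 (SE 0.08, adjusted p = 0.0135 by edgeR), its libraries overlapped, and the call was lost without old replicate 3 (-0.15, adjusted p = 0.0927), ICM replicate 1 (-0.19, adjusted p = 0.0733) or ICM replicate 2 (-0.19, adjusted p = 0.0621). MAFK did not pass the test (-0.18, 95% interval -0.36 to -0.0038, adjusted p = 0.0698 by edgeR). It did without old replicate 2 (-0.29, adjusted p = 0.00162).

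At the footprint level, 6 of the 8 regulators passed the filter on low counts, and MAFG and MAFK did not. In ICM against young cells, 1 of these 6 was called and none higher, where 13.7% of 4643 genes were called higher and 12.9% lower. BACH1 had 79.2, 79.9 and 82.7 CPM of footprints in young cells and 39.4, 13.6 and 22.8 in ICM cells. The groups did not overlap (log2 change -1.39, SE 0.49, adjusted p = 0.0336 by edgeR), but the ICM values rest on 8, 1 and 1 reads. Without young replicate 1 and old replicate 2 the change was -1.51 (adjusted p = 0.0344), and it was lost without young replicate 2 (-1.50, adjusted p = 0.109), young replicate 3 (-1.45, adjusted p = 0.15), ICM replicate 1 (-2.35, adjusted p = 0.063) or ICM replicate 2 (-1.22, adjusted p = 0.0847). DESeq2 gave -1.49 with an adjusted p of 0.146.

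KEAP1 footprints were at 79.2, 47.9 and 73.2 CPM in young and at 113, 95.5 and 183 in ICM cells, with no overlap. They rest on 4, 30 and 115 reads in young and on 23, 7 and 8 in ICM cells. The log2 change of 0.89 (95% interval 0.13 to 1.66) had an adjusted p of 0.0748 and so did not pass the test (edgeR), and without young replicate 1 and old replicate 2 it was 0.79 (adjusted p = 0.154). NFE2L2 footprints were at 79.2, 320 and 317 CPM in young cells, where the lowest value came from 4 reads of replicate 1, and at 256, 109 and 183 in ICM cells. These groups overlapped (log2 change -0.53, 95% interval -1.11 to 0.05). Without young replicate 1 and old replicate 2 the NFE2L2 change was -0.75 and passed the test (adjusted p = 0.0363 by edgeR), as it did without ICM replicate 1 (-1.23, adjusted p = 0.0365).

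Of the other regulators, NFE2L1 had 158, 150 and 138 CPM of footprints in young and 232, 40.9 and 0 in ICM cells, and CUL3 99, 129 and 148 in young and 108, 150 and 0 in ICM cells. A count of 0 in ICM replicate 3 allows up to 68.5 CPM for counting error alone. NFE2L1 rested on ICM replicate 1: without it the log2 change against young cells went from 0.03 to -2.59 (adjusted p = 0.00761 by edgeR), from 3 reads in the remaining ICM libraries. MAFF was at 19.8, 20.8 and 21.6 CPM in young and at 49.3, 13.6 and 68.5 in ICM cells, which overlapped (log2 change 1.02, 95% interval -0.21 to 2.25). MAFG and MAFK had 11 and 8 CDS reads in all ICM libraries together, against 18 and 24 in young cells. Tested without the filter, MAFG changed by 1.84 (95% interval 0.38 to 3.30, adjusted p = 0.0933 by edgeR) and MAFK by 0.97 (-0.56 to 2.50).

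**Figure D3:**
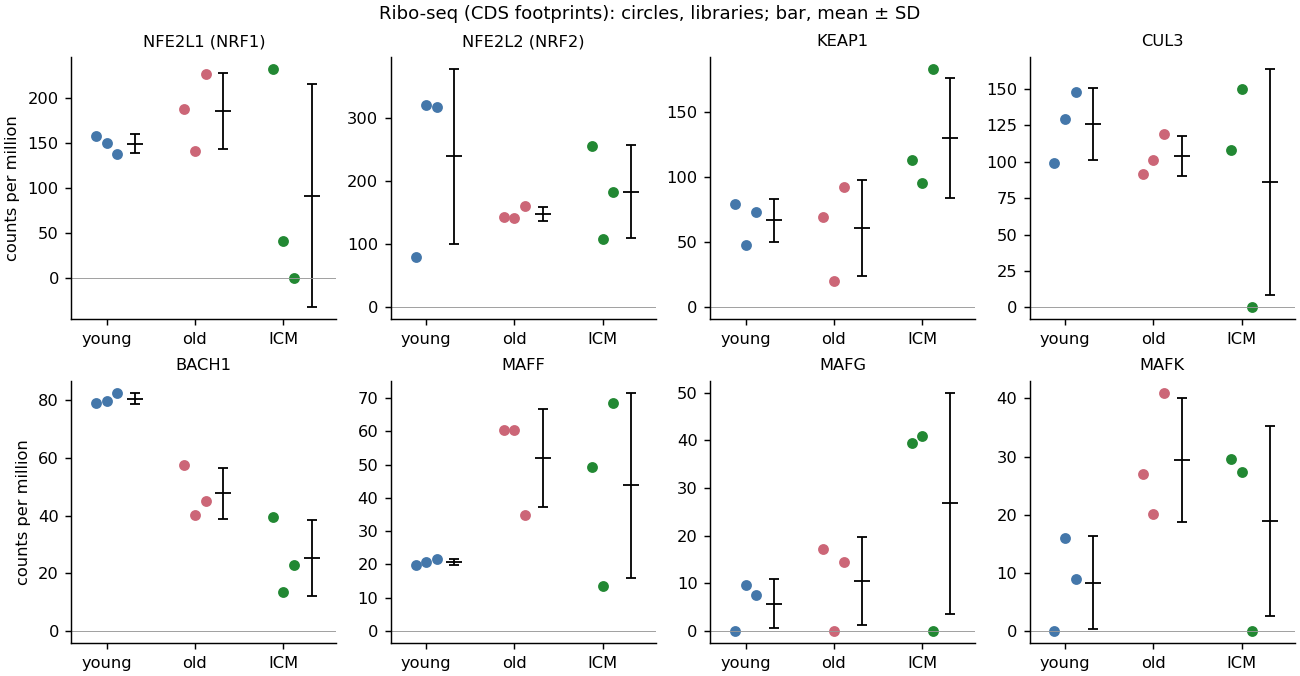
Ribo-seq level of each regulator in CPM of CDS reads, with 1 circle per library and the mean ± SD of 3 libraries beside it. The ICM libraries spread widely, from 0 to 232 for NFE2L1, and young replicate 1 is the low young value of NFE2L2, at 79.2.

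In old against young cells, 2 of the 6 regulators were called in Ribo-seq, 1 higher and 1 lower, where 19.3% of all genes were called higher and 17% lower. NFE2L2 footprints were at 143, 141 and 160 CPM in old cells, below young replicates 2 and 3 and above young replicate 1. The log2 change was -0.99 (SE 0.23, adjusted p = 0.000784 by edgeR), and -1.06 without young replicate 1 and old replicate 2 (adjusted p = 3.19e-05). It was lost without young replicate 2 (-0.86, adjusted p = 0.0734) or young replicate 3 (-0.84, adjusted p = 0.0902) and by DESeq2 (-0.86, adjusted p = 0.155).

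MAFF footprints were at 60.4, 60.4 and 34.9 CPM in old cells, above all young libraries. These values rest on 85, 3 and 17 reads in old cells and on 1, 13 and 34 in young cells. The log2 change was 1.27 (SE 0.39, adjusted p = 0.0108 by edgeR), 1.28 without young replicate 1 and old replicate 2 (adjusted p = 0.00932), and 1.23 with an adjusted p of 0.252 by DESeq2. MAFF did not pass the filter once any of young replicates 2 and 3 and old replicates 1 and 3 was left out. BACH1 footprints were at 57.6, 40.2 and 45.2 CPM, below all young libraries, but did not pass the test (-0.62, 95% interval -1.18 to -0.07, adjusted p = 0.0712 by edgeR), also not without young replicate 1 and old replicate 2 (-0.59, adjusted p = 0.151). The value of 40.2 in old replicate 2 came from 2 reads. MAFK, tested without the filter, rose by 1.50 (adjusted p = 0.0181 by edgeR) on 59 reads in old and 24 in young cells. It passed the filter once young replicate 1 and old replicate 2 were left out, with a change of 1.51 (adjusted p = 0.0164).

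NFE2L1, KEAP1 and CUL3 footprints overlapped between old and young cells. Their log2 changes were 0.46 (95% interval -0.06 to 0.98), 0.22 (-0.35 to 0.79) and -0.44 (-0.94 to 0.07). In ICM against old cells, none of the 6 regulators was called in Ribo-seq, none had an unadjusted p under 0.05, and DESeq2 called 0, where 5.79% of all genes were called higher and 7.62% lower. The largest differences were those of BACH1 (-0.76, 95% interval -1.84 to 0.31) and KEAP1 (0.67, -0.09 to 1.43), whose groups did not overlap. Old replicate 2 held 1 CDS read of KEAP1 and 2 of BACH1. Without ICM replicate 1, NFE2L1 was called in this comparison too (-3.06, adjusted p = 0.000599 by edgeR).

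**Figure D4:**
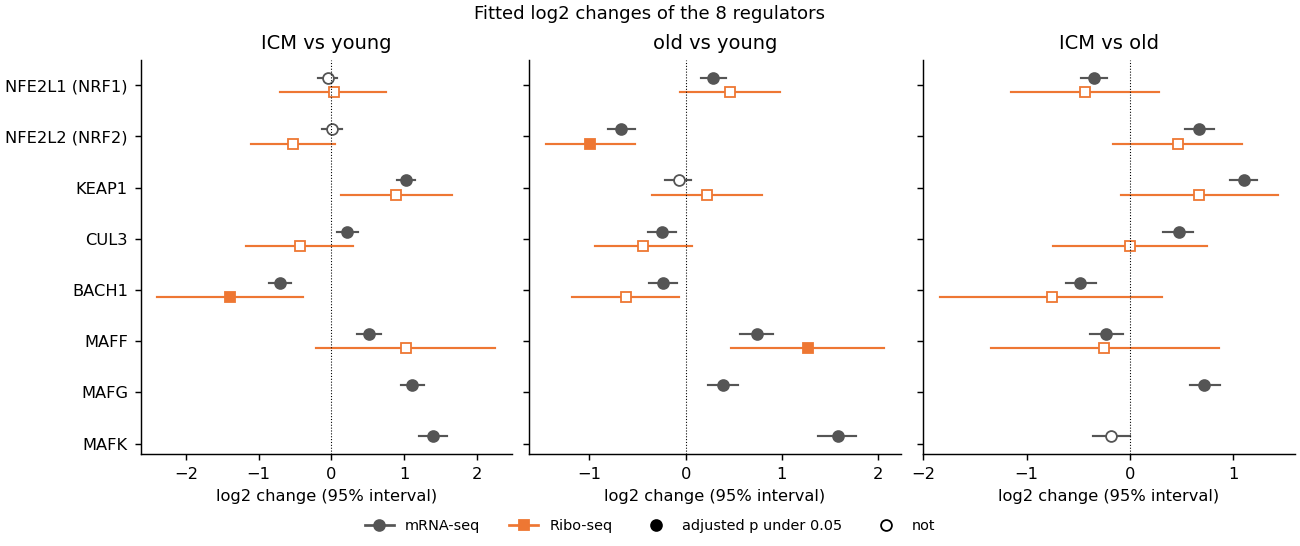
Fitted log2 changes with 95% intervals of the 8 regulators in mRNA-seq (circles) and Ribo-seq (squares) for the 3 comparisons, with filled symbols at an adjusted p under 0.05. MAFG and MAFK have no Ribo-seq symbol because they did not pass the filter. Ribo-seq intervals are several times as wide as those of mRNA-seq.

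Translational efficiency, the footprint level relative to the mRNA level, was tested in 1 fit of both assays. None of the 6 regulators that could be tested was called in ICM against young, old against young or ICM against old cells by edgeR or DESeq2, and none had an unadjusted p under 0.05. Of 4618 genes, 2.38%, 1.43% and 0.346% were called in these comparisons. The intervals stayed wide. For NFE2L2 the log2 change in efficiency was -0.51 (95% interval -1.13 to 0.10) in ICM and -0.23 (-0.73 to 0.27) in old against young cells. For BACH1 it was -0.68 (-1.76 to 0.40) in ICM and -0.34 (-0.93 to 0.24) in old cells. For KEAP1 the values were -0.09 (-0.83 to 0.65) and 0.28 (-0.31 to 0.87). In ICM against young cells, the intervals of NFE2L2, CUL3 and BACH1 reached below a log2 change of -1 and that of MAFF above 1, so that changes of that size in that direction lay within them. Without ICM replicate 1, NFE2L1 was called in efficiency (-2.59 against young cells, adjusted p = 0.0339, and -2.74 against old cells, adjusted p = 0.0304, by edgeR), on the same 3 reads.

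The target genes of NRF2 and BACH1 rose almost without exception in ICM cells, while NRF2 mRNA did not pass the test there. In mRNA-seq, 32 of the 34 listed genes were called higher and 1 lower, where 34.9% of all genes were called higher and 36.1% lower. The list's median log2 change was 1.77. ABCC4 was the 1 gene that did not pass the test. HMOX1, which degrades heme and is a classical BACH1-repressed gene, went from 31.5, 37.7 and 35.2 CPM in young to 963, 1046 and 912 in ICM cells (log2 change 4.80, SE 0.08, adjusted p = 6.04e-22 by edgeR). OSGIN1, an oxidative stress response gene, went from 17.9, 18.9 and 17.7 to 226, 220 and 215 CPM (log2 change 3.60, SE 0.08). SESN2, a stress-induced inhibitor of mTORC1 signalling, was the gene that fell (-0.83, SE 0.08). In Ribo-seq, 26 of the 29 listed genes that passed the filter were called higher and 0 lower. Of all genes, 13.7% were called higher and 12.9% lower. Without young replicate 1 and old replicate 2, 28 of 32 listed genes were called. The share of all genes at such other settings is not given, here and below, so these counts describe only the listed genes. HMOX1 footprints were at 139, 38.4 and 42 CPM in young, at 48.4, 241 and 41 in old and at 1754, 2278 and 731 in ICM cells, so that young replicate 1 and old replicate 2 were the high values of their groups.

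In old cells most of this list fell in mRNA-seq, while its footprint calls went both ways, at shares near those of all genes. In mRNA-seq, 24 of the 34 target genes were called lower and 3 higher, where 33.7% of all genes were called lower and 32.4% higher. The list's median log2 change was -0.41. NQO1, the quinone reductase, fell by 1.83 on the log2 scale (SE 0.07, adjusted p = 6.61e-16 by edgeR), from 358, 328 and 358 CPM in young to 94, 105 and 94.3 in old cells. GCLC, the catalytic subunit of glutathione synthesis, and ABCC4, an export pump, rose by 0.43 (SE 0.07) and 0.32 (SE 0.07). In Ribo-seq, 7 of 29 were called lower and 4 higher, where 17% of all genes were called lower and 19.3% higher. Without young replicate 1 and old replicate 2, 12 of 32 were called, and DESeq2 called 4. The 11 calls by edgeR with all libraries became 5 without young replicate 2, old replicate 1 or old replicate 3, and 6 without young replicate 3. Against old cells, ICM cells had 32 target genes called higher and 2 lower in mRNA-seq, and 27 higher and 0 lower in Ribo-seq. Of all genes, 30.7% were called higher and 32.6% lower there in mRNA-seq, and 5.79% and 7.62% in Ribo-seq. The list was assembled from textbook targets with earlier results of these data known, so its counts are a description.

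In translational efficiency, 3 of the 29 tested target genes were called higher in old against young cells and 0 lower, where 1.43% of all genes were called in either direction. These were FTL and FTH1, the light and heavy chains of the iron store ferritin, and OSGIN1, all described here after their values were seen. Their mRNA fell in old cells, by 0.30 (SE 0.07) for FTL, 0.41 (SE 0.08) for FTH1 and 0.66 (SE 0.10) for OSGIN1. Their footprints rose, with log2 changes of 1.65 (SE 0.28), 0.63 (SE 0.23) and 1.41 (SE 0.45). The changes in efficiency were 1.93 (adjusted p = 8.32e-06), 1.01 (adjusted p = 0.00895) and 2.07 (adjusted p = 0.00525 by edgeR). FTL footprints were at 772, 198 and 199 CPM in young and 634, 1187 and 798 in old cells, and FTH1 footprints at 337, 225 and 151 and at 311, 302 and 291. In both, young replicate 1 lay within or above the old range and the other young libraries below it, and OSGIN1 footprints did not overlap (19.8, 14.4 and 10.8 in young, 25.6, 80.5 and 41 in old cells). In young replicate 1 and old replicate 2, 3 counts amounted to 59.4 and 60.4 CPM, so that the OSGIN1 values there rest on few reads. Without young replicate 1 and old replicate 2 the efficiency changes of FTL, FTH1 and OSGIN1 were 2.14, 1.13 and 2.01, all called. Ferritin genes have many processed pseudogenes, so that their counts are uncertain to the extent that reads were divided among copies. In ICM against young cells only TXN, which encodes thioredoxin, was called, where 2.38% of all genes were called in either direction. Its efficiency was lower (-0.77, adjusted p = 0.0143 by edgeR), and it was also chosen after its values were seen. In ICM against old cells FTL (-1.78, adjusted p = 0.000102) and FTH1 (-1.22, adjusted p = 0.00472 by edgeR) were called lower, and without both libraries OSGIN1 was too (-1.49, adjusted p = 0.0486). Of all genes, 0.346% were called in that comparison with all libraries.

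The mRNAs of other factors that act on NRF2 protein moved in both directions. This list holds opposing roles, such as those of SQSTM1 and BTRC below, so its counts say nothing about NRF2 turnover. Of 16 turnover factors, 5 were called higher and 8 lower in ICM cells, and 3 higher and 8 lower in old cells, with median log2 changes of -0.13 and -0.24. Over all genes, 34.9% were called higher and 36.1% lower in ICM cells, and 32.4% and 33.7% in old cells. SQSTM1 (p62), the autophagy adaptor that sequesters KEAP1 and is itself an NRF2 target, was at 749, 779 and 762 CPM in young, 705, 658 and 727 in old and 4166, 4394 and 4213 in ICM cells (ICM against young 2.48, SE 0.06, adjusted p = 4.03e-19 by edgeR). BTRC, the adaptor of the second ligase that targets NRF2, rose by 1.17 (SE 0.07) in ICM and by 0.82 (SE 0.07) in old cells, and its relative FBXW11 by 0.21 (SE 0.06) in old cells. PGAM5, a mitochondrial partner of KEAP1, fell by 0.77 (SE 0.08) and 0.46 (SE 0.08), and CAND1, which exchanges cullin adaptors, by 0.50 (SE 0.07) and 0.43 (SE 0.07).

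**Figure D5:**
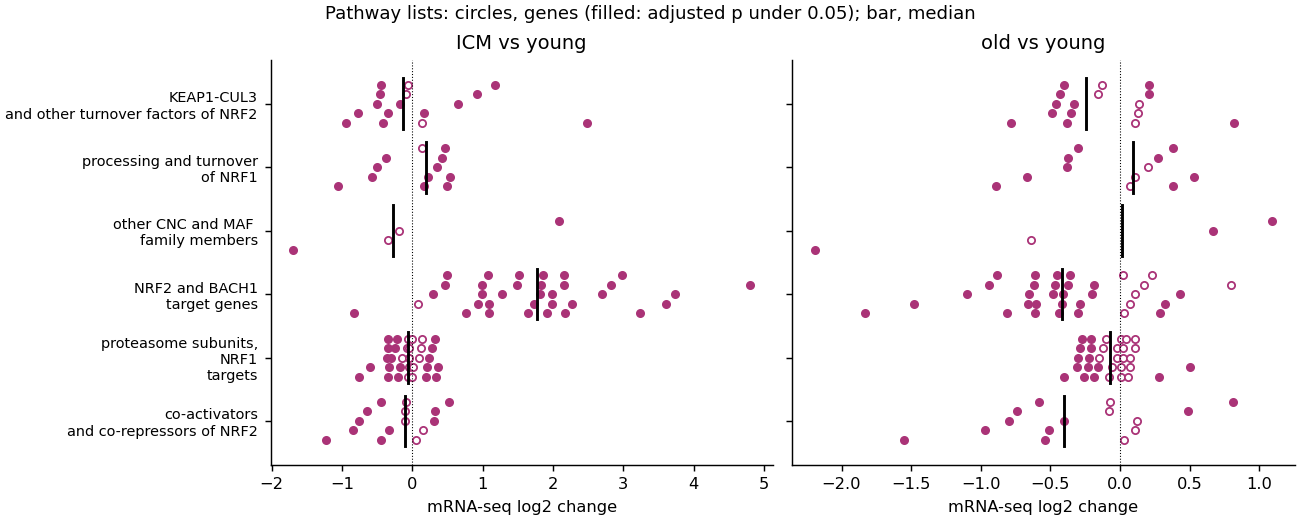
mRNA-seq log2 changes of the genes of 6 pathway lists in ICM and in old against young cells, with 1 circle per gene, filled at an adjusted p under 0.05, and a bar at the median of each list. The target genes of NRF2 and BACH1 lie mostly to the right in ICM cells (median 1.77) and to the left in old cells (median -0.41), and the proteasome genes lie around 0.

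Proteasome genes, here subunit genes and the assembly factor gene POMP, are the classical targets of NRF1 and changed little. Of 32 such genes, 7 were called higher and 12 lower in ICM cells (median log2 change -0.06), and 2 higher and 12 lower in old cells (median -0.07), where NFE2L1 mRNA had risen. Shares of all genes called higher and lower were 34.9% and 36.1% in ICM and 32.4% and 33.7% in old cells. At an absolute log2 change over 0.6, 2 and 0 of them were called. PSMB5, a catalytic subunit, rose by 0.36 (SE 0.07) in ICM and 0.28 (SE 0.07) in old cells, and PSMA3 by 0.33 (SE 0.08) in ICM cells, while it fell by 0.31 (SE 0.08) in old cells. PSMC3 and PSMA1 fell by 0.76 (SE 0.06) and 0.60 (SE 0.07) in ICM cells, PSMA4 fell by 0.40 (SE 0.08) and PSMD2 rose by 0.50 (SE 0.06) in old cells. In Ribo-seq, 0 were called higher and 3 lower in ICM cells, and 1 higher and 7 lower in old cells, where 13.7% and 12.9% of all genes were called higher and lower in ICM and 19.3% and 17% in old cells. Without young replicate 1 and old replicate 2, 3 and 8 were called. The 3 calls in ICM cells became 1 without young replicate 2 and 5 without ICM replicate 3, and the 8 in old cells became 0 or 1 when young replicate 2 or 3 was left out and 3 when old replicate 1 or 3 was.

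Of 12 measured factors of NRF1 processing and turnover, 7 were called higher and 4 lower in ICM cells, and 4 higher and 5 lower in old cells. Their roles differ, so these counts say nothing about the direction of NRF1 turnover. All genes had 34.9% called higher and 36.1% lower in ICM, and 32.4% and 33.7% in old cells. DDI2, the protease that cleaves NRF1, fell by 1.05 (SE 0.11) in ICM cells, and OGT, which glycosylates it, by 0.57 (SE 0.08). UFD1 and SYVN1, of the machinery that extracts and ubiquitinates proteins at the endoplasmic reticulum, rose by 0.54 (SE 0.07) and 0.49 (SE 0.07). In old cells SEL1L rose by 0.53 (SE 0.07) and SYVN1 by 0.38 (SE 0.07), while OGT fell by 0.89 (SE 0.08) and HCFC1 by 0.67 (SE 0.10).

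Among 7 other members of the CNC and MAF families, 4 passed the mRNA-seq filter. NFE2L3 (NRF3), a relative of NRF1, was at 50.8, 51.5 and 56.9 CPM in young, 85.7, 86.3 and 80.9 in old and 17.9, 14.3 and 16.9 in ICM cells, with no overlap between any groups. It rose by 0.67 (SE 0.07) in old and fell by 1.69 (SE 0.09) in ICM cells. The 15 measured co-regulators of NRF2 include co-activators and co-repressors, so their counts give no direction for the pathway. Of these, 3 were called higher and 7 lower in ICM cells, and 2 higher and 8 lower in old cells. The shares of all genes were those given above. CHD6 and RXRA rose by 0.52 (SE 0.09) and 0.32 (SE 0.07) in ICM cells, and NFKB1 and SMARCA4 fell by 1.23 (SE 0.08) and 0.84 (SE 0.08). In old cells NCOA3 and RELA rose by 0.81 (SE 0.07) and 0.49 (SE 0.07), and NR1H3 and NFKB1 fell by 1.55 (SE 0.16) and 0.97 (SE 0.08).

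The genes whose mRNA-seq pattern over the 9 libraries was most like each regulator were ranked by Pearson's r of log2 levels over 10808 genes. For KEAP1 these were SQSTM1 and EPHX1 (both r = 0.998), and both are on the lists above. For NFE2L2 they were TNFAIP8 (0.993) and WASHC2A (0.99), for NFE2L1 DSP (0.984) and ROGDI (0.979), for CUL3 ARHGAP12 (0.98) and SMAD6 (0.973), and for BACH1 RECQL (0.992) and MECOM (0.989). The small MAFs were closest to ABTB2 (0.987) and ADCY6 (0.986) for MAFF, PITX1 (0.997) and LPIN1 (0.996) for MAFG, and IFFO1 and RSPH3 (both 0.995) for MAFK. The 9 libraries form 3 conditions, so that such values are high for many genes: between 278 genes (CUL3) and 964 genes (MAFG) reached an r over 0.9.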

How the data were processed

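Ribo-seq and mRNA-seq were analysed in 18 IMR90 libraries, grouped by sample titles (3 per assay and condition). Per the study's methods, the replicates were grown independently. The deposited values are estimated counts for each gene symbol, with columns for 5′ UTR, CDS, 3′ UTR and other classes, not scaled to depth by the authors. The submitters' processing notes name STAR 2.6.0c, featureCounts, DESeq2, deepTools and GRCh37. How reads with several matches were divided is not given in the sources used here, and strand use in counting likewise.

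CDS reads (Ribo-seq) or the sum of the 3 regions (mRNA-seq) were rounded and went into edgeR 4.0.16 (R 4.3.3; TMM scaling, filterByExpr, then glmQLFit with glmQLFTest), with all 9 libraries of an assay in 1 fit. Two-sided p-values were adjusted by Benjamini-Hochberg over all genes tested and called under 0.05. Translational efficiency was the assay by condition interaction over 18 libraries, blocked by lysate, in place of anota2seq, which was not used here. The block rests on the methods' statement of 1 lysate; deviations of the 9 pairs from their group means correlated at r -0.0649 to 0.111. SE is the change divided by the root of F, and 95% intervals use its t distribution. CPM uses TMM-scaled library sizes. The floor of 3 counts covers counting error only, while intervals include the spread between libraries. Levels between genes are CDS reads in CPM divided by the MANE Select coding length in kilobases. Similarity used log2(CPM + 0.5) over genes of at least 5 CPM. Sequences were read from the GRCh37 genome and transcripts.

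The members and lists were chosen with earlier results of these data known. All 8 regulators were named, and from each list the 2 largest called rises and falls of at least 5 CPM in mRNA-seq; 1 gene under this rule and 1 start region are not reported here. Alternatives were DESeq2 1.42.0, RLE scaling, other filters, thresholds, read regions and groups, a replicate block, and leaving out lysates.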

Additional observations from a re-analysis of the deposited data

How the results depend on the processing

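In mRNA-seq, 6, 7 and 7 regulators were called in ICM against young, old against young and ICM against old, and 4, 3 and 3 at an absolute log2 change over 0.6. Shares of all genes called at such other settings are not given. The counts at these settings therefore describe only the regulators. Ribo-seq calls of the regulators rest on few reads. Leaving out 1 lysate gave 5 to 6, 6 to 7 and 6 to 8 calls in mRNA-seq, and 0 to 2, 0 to 3 and 0 to 1 in Ribo-seq. For translational efficiency it gave 0 to 1, 0 and 0 to 1. In Ribo-seq, ICM against young, the 1 call became 0 with DESeq2, a mean of at least 50 counts, only the compared groups or the replicate block, and 2 at an adjusted p under 0.15, with reads of all 3 regions, or without young replicate 1 and old replicate 2. In Ribo-seq, old against young, the 2 calls became 0 with DESeq2 or the replicate block, 1 with a mean of at least 50 counts or with reads of all 3 regions, and 6 with only the compared groups. Same-numbered libraries of different conditions correlated at r -0.0742 to 0.116 (mRNA-seq) and 0.000908 to 0.0365 (Ribo-seq). Both libraries of a lysate correlated as weakly (r -0.0649 to 0.111), so this measure cannot tell whether replicate numbers pair the conditions. The cause of the shifts in calls was not tested.

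Signs turned only for changes that had not been called. NFE2L2 mRNA, ICM against young, was -0.001 without a filter, -0.0026 without young replicate 1 and old replicate 2, and -0.03 to 0.02 with 1 lysate out. NFE2L1 footprints in that comparison were -0.39 with DESeq2, -0.19 without a filter, -0.08 without both libraries, -0.38 with the replicate block, -0.04 with all 3 regions and -2.59 to 0.29 with 1 lysate out. Its efficiency was -1.08, -0.20, -0.06, -0.02 (compared groups) and -0.0022 (3 regions), and -2.59 to 0.34 with 1 lysate out. CUL3 footprints, ICM against old, were -0.07 with DESeq2, -0.20 without a filter, -0.14 without both libraries, -0.05 with the replicate block, -0.0044 with all 3 regions and -0.24 to 0.15 with 1 lysate out. With 1 lysate out, KEAP1 footprints, old against young, ran from -0.04 to 0.47, and in ICM against old NFE2L2 from -0.24 to 0.66 and MAFF from -0.72 to 0.01. KEAP1 efficiency, ICM against young, was 0.15 with all 3 regions and -0.34 to 0.12 with 1 lysate out. NFE2L1 efficiency with 1 lysate out was -0.03 to 0.23 in old against young and -2.74 to 0.23 in ICM against old. MAFF efficiency, ICM against old, was -0.13 without a filter, -0.06 without both libraries, -0.06 with no replicate block, and -0.47 to 0.30 with 1 lysate out.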
